A study of Mus musculus with 109 samples.

Results

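Members of the Sox family of transcription factors, 7 of 15973 listed genes, were followed across single cells of the neonatal mouse cerebellum. They were taken by symbol from the table of cell counts and are Sox4, Sox11 and Sox12 (the SoxC group), Sox2 (SoxB1), Sox9 (SoxE), and Sox5 and Sox6 (SoxD). The table held single cells of C57BL/6 mice at postnatal day 7, prepared from cerebella on a Percoll density gradient to enrich granule cell precursors, captured on C1 Fluidigm chips and sequenced 1 by 1. The cells carry no treatment or genotype, and their labels put them in 6 library groups of 18 to 19 cells, numbered 1 to 6 here. The labels do not say whether these groups came from separate animals, so p-values below measure the spread between library groups, which may be technical. A cell's level of a gene is given as CPM, its counts of that gene per 1000000 counts of the cell.

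Sox proteins bind DNA through a shared HMG box, which bends the double helix, and act with partner factors that differ between cell types. Sox2 keeps neural progenitors undifferentiated and Sox9 acts in neural stem cells and glia. SoxC factors turn on neuronal genes in cells that leave the cell cycle, and the SoxD factors, which lack an activation domain of their own, modify the work of other Sox proteins in neurons and in the oligodendrocyte lineage. In the postnatal cerebellum, granule cell precursors divide in the external granule layer and then become migrating neurons. Mki67, which encodes a protein of dividing cells, and Dcx, which encodes a microtubule-binding protein of migrating young neurons, were used to place each cell along this path.

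The shared part of these genes is shown first, because it ties the 7 members together and because it is where reads of close relatives are most alike. Each run below is 75 bases (25 codons) of coding sequence within the HMG box, in the direction of the transcript. It was read from annotated transcript sequences, with positions on the GRCm38 (mm10) genome. Capitals mark the 35 positions at which all 7 genes carry the same base.
Sox4: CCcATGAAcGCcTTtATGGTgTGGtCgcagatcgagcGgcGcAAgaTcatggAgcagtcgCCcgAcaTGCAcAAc
Sox11: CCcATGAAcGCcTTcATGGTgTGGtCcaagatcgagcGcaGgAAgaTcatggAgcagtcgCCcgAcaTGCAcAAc
Sox12: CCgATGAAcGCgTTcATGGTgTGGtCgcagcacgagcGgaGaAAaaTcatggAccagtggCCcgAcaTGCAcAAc
Sox2: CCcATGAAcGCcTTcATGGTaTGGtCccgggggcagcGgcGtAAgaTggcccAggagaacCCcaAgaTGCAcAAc
Sox9: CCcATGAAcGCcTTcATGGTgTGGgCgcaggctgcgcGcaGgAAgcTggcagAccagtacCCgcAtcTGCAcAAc
Sox5: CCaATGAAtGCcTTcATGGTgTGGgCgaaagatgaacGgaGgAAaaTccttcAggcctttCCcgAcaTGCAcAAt
Sox6: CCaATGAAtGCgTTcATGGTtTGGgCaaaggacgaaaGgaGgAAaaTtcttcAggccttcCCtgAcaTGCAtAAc
These runs lie on the minus strand at chr13:28952764-28952838 for Sox4, chr12:27342181-27342255 for Sox11, chr2:152397498-152397572 for Sox12, chr6:143841196-143841270 for Sox5 and chr7:115489685-115489759 for Sox6. They lie on the plus strand at chr3:34650551-34650625 for Sox2 and chr11:112782906-112782980 for Sox9.

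Within this run the SoxC genes were closest to each other. Sox4 and Sox11 shared 69 of 75 bases (92.0%), Sox4 and Sox12 shared 65, and Sox11 and Sox12 shared 64. The SoxD pair, Sox5 and Sox6, shared 64 bases, and the least alike pair was Sox9 and Sox6 with 46 (61.3%). Over their whole transcripts, the longest stretch that Sox4 and Sox11 share is 48 bases, and a read wholly inside it could not tell them apart. The transcripts are far longer than that: Sox4 (chr13:28948919-28953713), Sox11 (chr12:27334264-27342574), Sox12 (chr2:152393611-152398063) and Sox2 (chr3:34650405-34652461) each have 1 exon, of 4795, 8311, 4453 and 2057 bases. Sox9 (chr11:112782224-112787760) has 3 exons with 4135 bases in all, whereas Sox5 (chr6:143828425-144781977) and Sox6 (chr7:115470872-116038796) spread 14376 and 14832 exonic bases over 25 annotated exons each. Sox4 shares 2616 exonic bases with the noncoding gene Gm26735 on the other strand, and Sox5 shares 1330 with its antisense gene Sox5os1. The strand setting of the counting is not given in the sources used here, so reads of these overlapping genes may not be told apart.

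Total counts per cell ran from 15071 to 8616017, and the medians of the library groups lay between about 2442200 and 4290790. The cells matched their label: 94 of them had at least 3 of 8 granule cell lineage genes at 50 CPM or more, with a median of 4 per cell. A few cells carried genes of other lineages at that level. In 3 library groups, 4 cells had at least 5 of 8 astroglial genes, 5 cells in 4 groups had at least 3 of 8 oligodendrocyte lineage genes, and 5 cells in 4 groups had at least 3 of 6 inhibitory neuron genes. The cell of 15071 counts was in group 2, and 3 cells in all had fewer than 100000 counts or more than 10000 detected genes. Small counts occurred widely: the glial factor Sox8 had a count in 85 cells, 76 of them with only 1 to 5 counts, and reached 10 CPM in only 4. A cell was therefore said to carry a gene from 10 CPM on.

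Sox4 was the member carried by most cells. It reached 10 CPM in 58 cells (53.2% of all, 95% Wilson interval 43.9 to 62.3%). Wilson intervals here and below treat cells as independent and leave out the spread between library groups. The share of cells with Sox4 ran from 36.8% to 66.7% between groups. Sox9 was carried by 47 cells (43.1%, 34.2 to 52.5%), Sox12 by 37 (33.9%, 25.7 to 43.2%), Sox5 by 20 (18.3%, 12.2 to 26.6%) and Sox11 by 16 (14.7%, 9.24 to 22.5%). Sox2, the progenitor factor, was carried by only 9 cells (8.26%, 4.40 to 14.95%), and Sox6 by 3 (2.75%, 0.940 to 7.78%). Of all cells, 13 carried none of the 7 genes, 40 carried 1, 31 carried 2, 15 carried 3, 7 carried 4 and 3 carried 5.

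Sox4 was widespread at a modest level, and the other members were rarer and more uneven. Among the cells that carried it, Sox4 had a median of 32.1 CPM, only 10 cells reached 100 CPM, and the highest cell (group 2) had 226 CPM. Its 3 highest cells held 19.4% of its summed CPM. Sox9 had a median of 133 CPM in its cells, 26 cells at 100 CPM or more and a highest cell of 1175 CPM (group 3). Sox12 cells had a median of 72.2 CPM and a highest cell of 1959 CPM (group 1). Sox5 depended on 1 cell above all: a group 2 cell with 2932 CPM held 44.6% of its summed CPM, beside a median of 89.3 CPM. Sox6 was the most uneven, with 98.3% of its summed CPM in 3 cells.

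Averaged over cells in each library group, Sox4 varied least between groups relative to its mean. It averaged 29.4 ± 8.05 CPM (SD, n = 6), from 21.7 to 43.9 CPM, and 7 to 12 cells of every group carried it. Sox9 averaged 98.1 ± 51.9 CPM and Sox12 70.4 ± 49.2 CPM, and both were carried by at least 4 cells in each group. Sox11 averaged 14.9 ± 16.5 CPM and ranged from 0.266 CPM in its lowest group to 44.9 CPM in its highest, with no cell at 10 CPM in group 4. Sox2 averaged 10.6 ± 5.51 CPM, Sox5 60.8 ± 75.2 CPM and Sox6 4.97 ± 7.77 CPM.

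Levels of different genes can be set side by side only per length. Per kilobase of exon, Sox9 stood first with 23.7 ± 12.5 CPM (SD, n = 6 library groups), followed by Sox12 with 15.8 ± 11.05, Sox4 with 6.14 ± 1.68, Sox2 with 5.16 ± 2.68, Sox5 with 4.23 ± 5.23, Sox11 with 1.79 ± 1.98 and Sox6 with 0.335 ± 0.524. Sox9 was above Sox12 in 6 of 6 library groups (p = 0.03125 by an exact sign-flip test over groups, two-sided, which can go no lower with 6; 0.1875 after Benjamini-Hochberg adjustment over the 6 neighbouring pairs). The other neighbours had unadjusted p from 0.0625 for Sox12 and Sox4 to 0.531 for Sox2 and Sox5 in the same exact test. After adjustment no pair of neighbours, Sox9 and Sox12 included, differed beyond the spread between library groups.

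**Figure D1:**
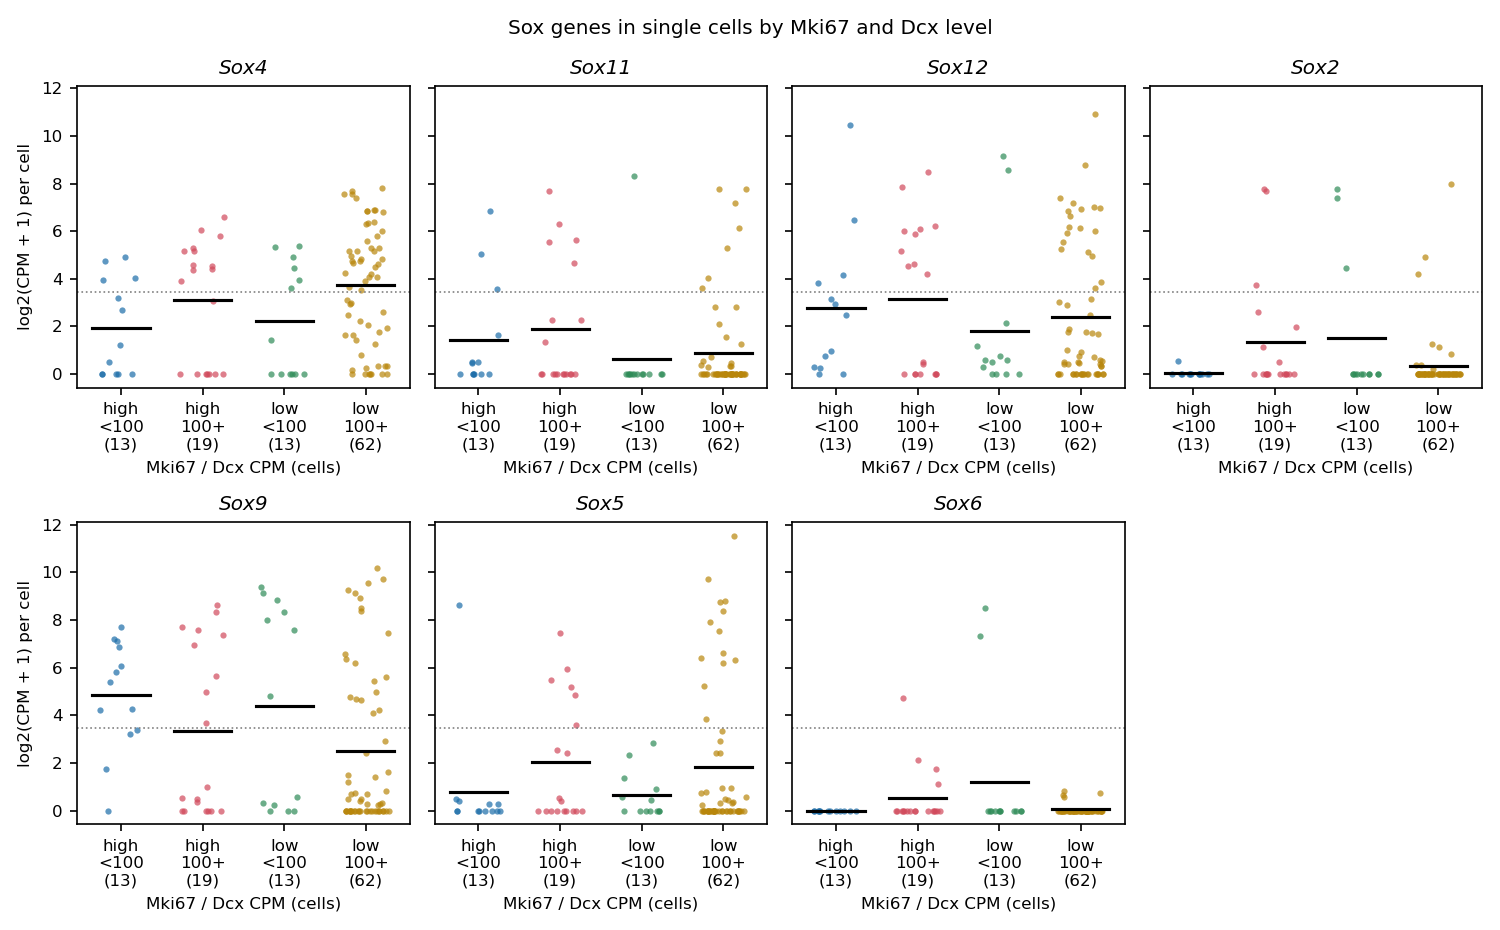
Level of each Sox gene in single cells, as log2(CPM + 1) on the vertical axis, in 4 states defined by Mki67 (100 CPM or more, or under 10 CPM) and Dcx (100 CPM or more, or under 100 CPM). Each point is a cell, the black bar is the mean over cells, the dotted line is 10 CPM, and the 2 cells with Mki67 between 10 and 100 CPM are not drawn. Sox4 points spread over every state, while Sox2 and Sox6 points lie mostly at 0.

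SoxC genes overlapped only in part. Of the 16 cells with Sox11, 11 (68.8%) also carried Sox4, and of the 37 cells with Sox12, 24 (64.9%) did, beside 53.2% of all cells. All 3 SoxC genes met in 5 cells, and 34 cells carried none of them. Across all cells, which share library groups and differ in depth, the rank correlation of Sox4 was 0.10 with Sox11, 0.02 with Sox12 and -0.24 with Sox9. Sox2 and Sox6 had the highest rank correlation among members, 0.45, with 2 of the 3 Sox6 cells also carrying Sox2. The Sox5 cell with 2932 CPM also had 220 CPM of Sox11 and 173 CPM of Sox9.

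Few other genes ran closely with a member. Among 6976 genes carried by at least 10 cells, Tspan7 (rank correlation 0.59) and Eif1a (0.51) came closest to Sox2, and Creld2 (0.54) and Fastkd3 (0.50) were among those closest to Sox6. For Sox4, Sox11, Sox12, Sox9 and Sox5 no gene reached 0.50. Sox2 also ran with the number of genes detected in a cell, at 0.41. Only 10 cells had any Sox6 count and 20 any Sox2 count. The rank correlations of both genes, that with each other included, therefore rest on few cells.

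The first comparison asks whether the Sox genes differ between dividing and non-dividing cells. It set 32 cells with Mki67 at 100 CPM or more (3 to 8 in each library group) against 75 cells with Mki67 under 10 CPM (10 to 15 in each). Each library group gave the mean log2(CPM + 1) over its cells of either class, and the difference was tested over groups with the exact two-sided sign-flip test, beside edgeR on summed counts. None of the 6 members tested passed either test, Sox6 being too low for the filter. Over all 9085 genes, 7.89% were higher and 1.17% lower in every library group, and edgeR called 0.033% at an adjusted p of 0.01. Of the 10811 genes to which DESeq2 gave an adjusted p, it called 2.48% higher and 1.01% lower. No member had an unadjusted edgeR p under 0.05 or a DESeq2 call. The lowest sign-flip p of any gene was 0.345 after adjustment. Cells with high Mki67 had a median of 4967 detected genes against 4193, and the median difference over all genes was 0.43 on the log2(CPM + 1) scale. The part of this shift in the members' values was not tested.

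Sox4 and Sox11, which are both SoxC genes, leaned opposite ways without passing. In cells with high Mki67, the group means of Sox4 had a lowest value of 0.89, a median of 2.52 and a highest value of 3.77 on the log2(CPM + 1) scale. In cells with low Mki67 they ran from 2.96 through 3.33 to 4.15, so that the classes overlapped. Sox4 averaged 0.97 ± 1.05 lower with high Mki67 (SD, n = 6), with 5 of 6 groups lower (exact sign-flip p = 0.09375, 0.446 adjusted over all genes), and edgeR gave a log2 fold change of -1.30 ± 1.21 (SE, adjusted p = 0.844). Sox11 ran from 0.48 through 1.40 to 3.17 with high Mki67 and from 0.02 through 0.93 to 1.58 with low Mki67, overlapping widely. Its mean difference was 0.68 ± 0.78, higher in 5 of 6 groups (exact sign-flip p = 0.09375, 0.446 adjusted), while the edgeR log2 fold change of its sums was -0.25 ± 1.54 (adjusted p = 0.989). Group 3 was the exception for Sox4 and group 2 for Sox11, and without these the differences were -1.29 and 0.89. Leaving out any other group kept 4 of 5 groups on the same side for either gene, with exact sign-flip p of 0.125 to 0.1875. Sox4 was carried by 15 of 32 cells with high Mki67 (46.9%, 30.9 to 63.6%) and 42 of 75 with low Mki67 (56.0%, 44.7 to 66.7%), and Sox11 by 8 of 32 (25.0%, 13.3 to 42.1%) and 8 of 75 (10.7%, 5.50 to 19.7%).

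The other members had no common direction across library groups. Sox9 was higher with high Mki67 in groups 1, 4, 5 and 6, by 2.63 to 4.03, and lower in groups 2 and 3, by 3.27 and 2.28, for a mean difference of 1.33 ± 3.24 (exact sign-flip p = 0.3125). It was carried by 18 of 32 cells with high Mki67 (56.2%, 39.3 to 71.8%) and 27 of 75 with low Mki67 (36.0%, 26.1 to 47.3%). Sox12 had a difference of 0.61 ± 2.88 (p = 0.656, same exact test) and its highest group mean with high Mki67, 6.73 in group 6, held a cell with 1401 CPM of Sox12, 395 CPM of Sox5 and 113 CPM of Sox11. Without group 6 the Sox12 difference was -0.36. Sox2 had a difference of 0.31 ± 0.96 (p = 0.531), Sox5 of -0.17 ± 1.97 (p = 0.875) and Sox6 of 0.07 ± 0.47 (p = 0.75), all by the exact sign-flip test with n = 6.

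**Figure D2:**
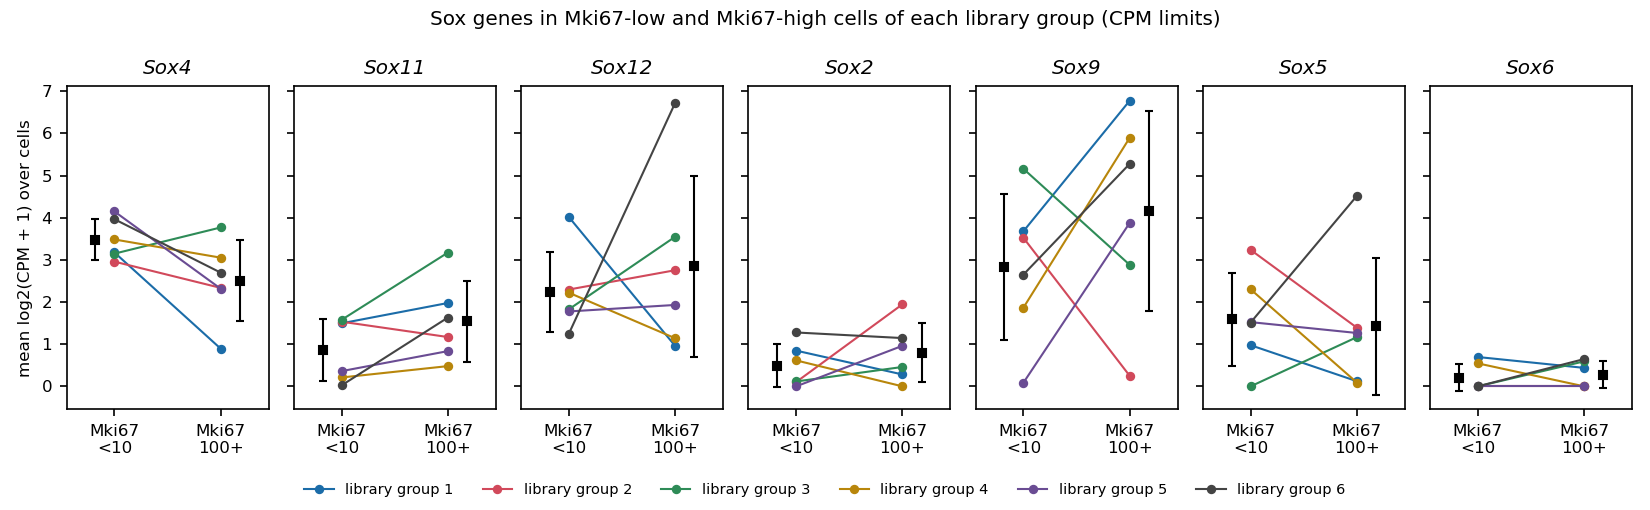
Mean log2(CPM + 1) of each Sox gene in cells with Mki67 at 100 CPM or more and under 10 CPM, with 1 line per library group and black squares for the mean ± SD over 6 groups. The Sox4 lines are lower with high Mki67 in 5 of 6 groups, and the Sox9 lines cross, higher in 4 groups and lower in 2.

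The second comparison asks how the Sox genes differ with Dcx. It set 83 cells with Dcx at 100 CPM or more against 9 cells with Dcx under 10 CPM, of which each library group had only 1 to 3. Sox12 and Sox5 were both higher with Dcx in all 6 groups, which 2 of the 5 members tested did (Sox11 and Sox6 were below the filter), beside 9.36% of all 7671 genes. Genes lower in every group made up 0.691%, with no member among them. For a sparse gene, a mean over 12 to 16 cells lies above 0 more readily than one over 1 to 3 cells. This imbalance favours genes being higher with Dcx, and its part in the Sox12 and Sox5 results was not tested. The cells with little Dcx held 49 counts of Sox12 and 2 of Sox5, so both genes met the filter mainly through the cells with Dcx. Such a gene could hardly come out lower with Dcx. No member passed edgeR at an adjusted p of 0.01, which called 0.013% of genes. At 0.05, edgeR called 8.53% of genes higher and DESeq2, at 0.01, called 16.4% higher and 0.969% lower. The median edgeR log2 fold change over all genes was 0.32 and the median difference of the means was -0.05.

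Sox12, the third SoxC gene, was nearly absent where Dcx was low. With Dcx at 100 CPM or more its group means had a lowest value of 1.94, a median of 2.61 and a highest value of 3.83 on the log2(CPM + 1) scale, and with Dcx under 10 CPM they ran from 0 through 0.56 to 1.08. With Dcx limits of 1000 and 100 CPM the Sox12 ranges overlapped. At the limits used here they did not, but the share of all genes without overlap was not counted. The difference was 2.11 ± 1.04 (SD, n = 6; 0.86 to 3.83), with an exact sign-flip p of 0.03125, again the lowest possible, or 0.311 when adjusted over every gene tested. On summed counts edgeR gave a log2 fold change of 5.53 ± 1.82 (SE, adjusted p = 0.0594) and DESeq2 4.91 (adjusted p = 8.36e-06). None of the cells with Dcx under 10 CPM carried Sox12 (0 of 9, which allows a share of up to 33.3%), against 6 of 17 with Dcx from 10 to 100 CPM, 14 of 29 from 100 to 1000 CPM and 17 of 54 from 1000 CPM on.

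Sox5 was even closer to 0 in the cells with little Dcx. Its group means ran from 0.64 through 2.10 to 2.79 with Dcx at 100 CPM or more and from 0 through 0 to 0.90 with Dcx under 10 CPM, and the classes overlapped in these ranges although each group's own difference was positive. The difference was 1.72 ± 0.83 (0.64 to 2.79), with an exact sign-flip p of 0.03125 and 0.311 adjusted. In the pooled counts the 9 cells with little Dcx held 2 counts of Sox5, both in 1 cell, of 34597687 in all, and the 83 cells with Dcx held 18374 of 299520777. The ratio of these rates was 1061. Its exact 95% interval of 294 to 8763 treats every read as independent, which reads without molecular identifiers are not. It also leaves out the spread between cells, and 1 cell alone held 6596 of the 18374 counts. Both low counts were in group 2, which also held the cell with 2932 CPM, and without group 2 the cells with little Dcx had no Sox5 count and no ratio can be given. The edgeR adjusted p was 0.0232 and that of DESeq2 6.02e-06; with library group as a block, edgeR gave 0.00692 in a fit that called 4.85% of genes higher. Sox5 carriers were 0 of 9 cells with Dcx under 10 CPM (95% Wilson interval 0 to 29.9%) and 1 of 17 from 10 to 100 CPM. They were 6 of 29 from 100 to 1000 CPM (20.7%, 9.85 to 38.4%) and 13 of 54 from 1000 CPM on (24.1%, 14.6 to 36.9%).

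Sox4 and Sox9 differed from each other in direction, and neither passed at these limits. Sox4 ran from 2.78 through 3.68 to 4.01 with Dcx at 100 CPM or more and from 0 through 1.05 to 4.90 with Dcx under 10 CPM, where 3 of 6 groups were at 0. The classes overlapped, and the difference was 1.66 ± 1.99, higher in 4 of 6 groups (exact sign-flip p = 0.125). Sox9 ran from 1.08 through 2.76 to 4.16 with Dcx and from 0 through 6.29 to 9.12 without. It was lower with Dcx in 5 of 6 groups, by 3.02 ± 3.04 on average (exact sign-flip p = 0.09375, 0.539 adjusted), and edgeR gave -1.98 ± 1.63 (adjusted p = 0.589). Of the 9 cells with Dcx under 10 CPM, 6 carried Sox9, at 41.3 to 554 CPM.

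The group that went against the others for Sox9 held a single cell with little Dcx. That cell of group 4 had none of the 8 granule cell genes at 50 CPM, 4 oligodendrocyte lineage genes, 433 CPM of Sox10 and no Sox9 count. It also had 215 CPM of Sox2 and 160 CPM of Sox6. Another cell with little Dcx, in group 3, had 3 oligodendrocyte lineage genes and 2001 CPM of Sox10. Without the 5 cells that carried oligodendrocyte lineage genes, group 4 had no cell with little Dcx left, and the mean difference over the other 5 groups was -4.73 for Sox9 and 0.57 for Sox2. Sox12 (2.25) and Sox5 (1.39) stayed higher in 5 of 5 groups.

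**Figure D3:**
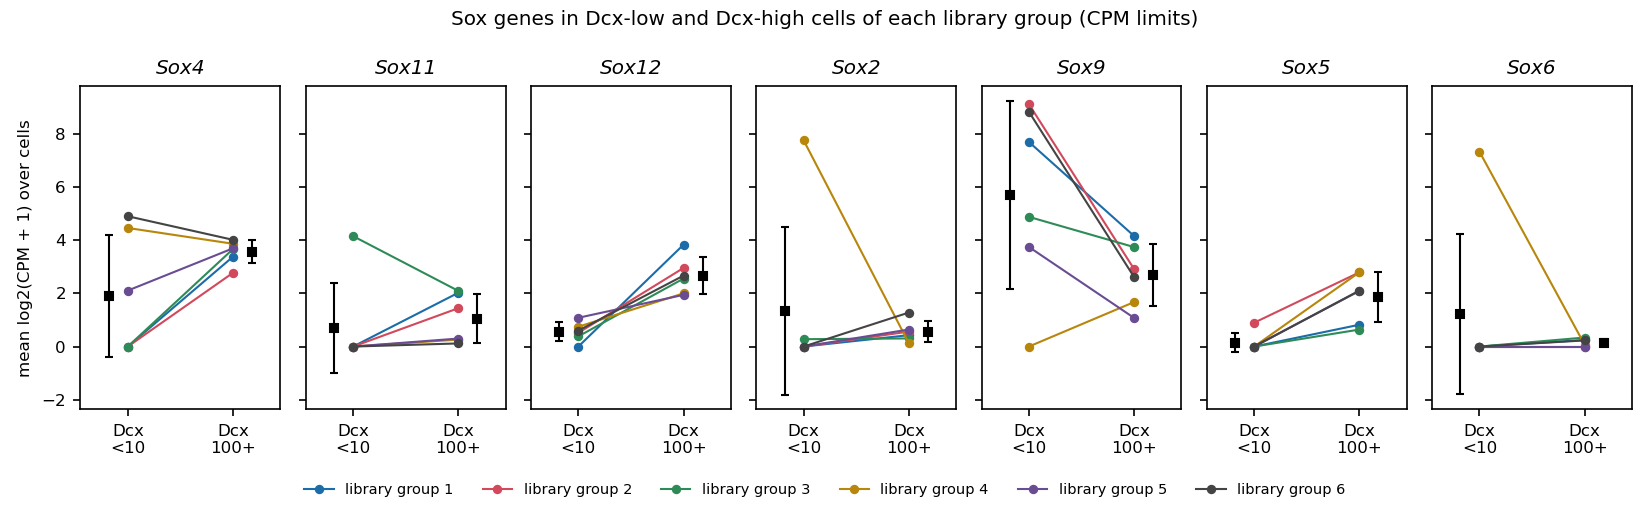
Mean log2(CPM + 1) of each Sox gene in cells with Dcx at 100 CPM or more and under 10 CPM, with 1 line per library group and black squares for the mean ± SD over 6 groups. Sox12 and Sox5 are higher with Dcx in 6 of 6 groups, and Sox9 is lower in 5 of 6.

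Other limits for Dcx brought other members forward. With 54 cells at 1000 CPM or more against 26 under 100 CPM, Sox4 was higher with Dcx in 6 of 6 groups, by 1.54 ± 0.94, its group means running from 2.81 to 4.68 with Dcx and from 0.12 to 2.61 without. Sox9 was lower in 6 of 6 groups, by 2.04 ± 0.98, from 0 to 4.15 with Dcx and from 3.16 to 6.07 without. For both the exact sign-flip p was 0.03125, with 0.555 after adjustment, beside 3.4% of genes higher and 2.23% lower in every group. At these limits Sox12 had a difference of -0.24 ± 1.65 (p = 0.781, same exact test) and Sox5 of 1.07 ± 1.63 (p = 0.1875). Within the cells of low Mki67, where 3.49% of genes were higher and 0.956% lower in every group, neither passed at these limits: Sox4 was higher in 5 of 6 groups by 1.43 (exact sign-flip p = 0.09375) and Sox9 lower in 5 of 6, at -2.22 (p = 0.15625, same exact test). Sox4 was carried by 3 of 9, 7 of 17, 17 of 29 and 31 of 54 cells from the lowest to the highest level, and Sox9 by 6 of 9, 10 of 17, 10 of 29 and 21 of 54.

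**Figure D4:**
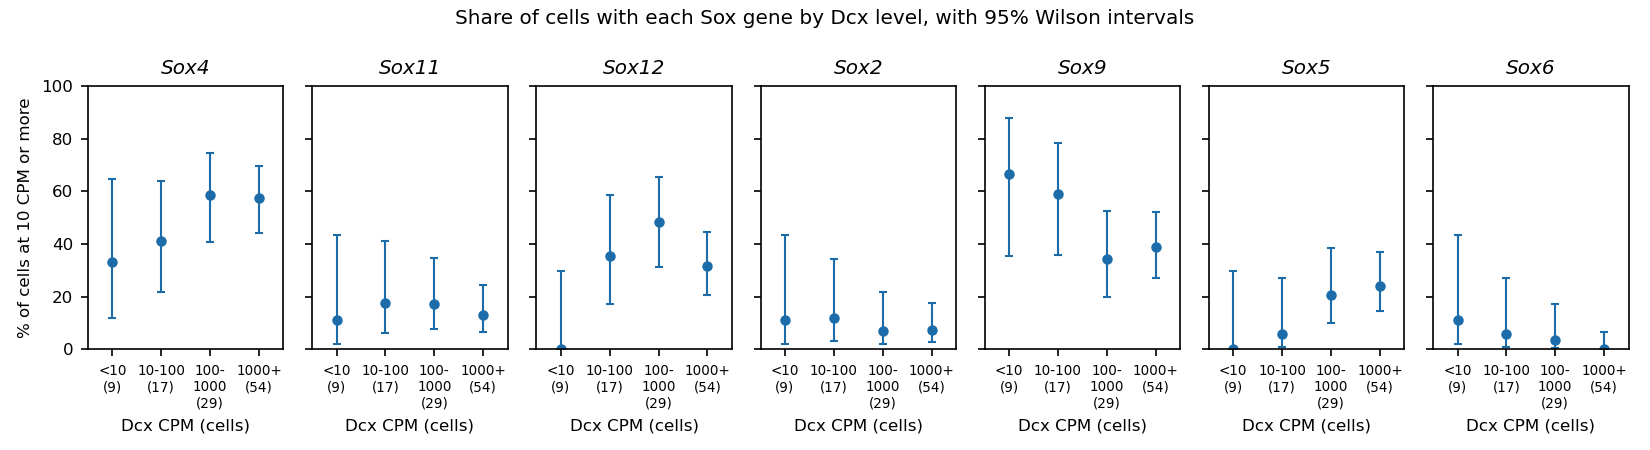
Percent of cells that carried each Sox gene at 10 CPM or more, in 4 classes of Dcx level (under 10, 10 to 100, 100 to 1000 and 1000 CPM or more; 9, 17, 29 and 54 cells), with 95% Wilson intervals that treat cells as independent. Sox4 runs from 33.3% to 57.4%, Sox9 from 66.7% to 38.9%, and Sox12 and Sox5 start at 0%.

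The third comparison kept to cells with Mki67 under 10 CPM, which leaves out the dividing cells. It left 62 cells with Dcx at 100 CPM or more and 5 under 10 CPM, 1 in each of groups 2 to 6, and 5 groups cannot go below an exact sign-flip p of 0.0625. Sox12 was higher with Dcx in 5 of 5 groups, by 1.48 ± 0.58 (p = 0.0625, exact sign-flip test), as were 11.8% of 6796 genes. Genes lower in every group made up 1%, and the imbalance in cell numbers that favours higher values with Dcx holds here too. The 5 cells with little Dcx held 6 counts of Sox12 and 2 of Sox5, so both again met the filter mainly through the cells with Dcx. Sox5 was higher in 4 of 5 groups and at 0 in both classes in the other, with a difference of 1.76 ± 1.10 (exact sign-flip p = 0.125), or 2.20 without that group, group 3. On summed counts edgeR gave adjusted p of 0.0571 for Sox12 and 0.0513 for Sox5, DESeq2 gave 0.000842 and 0.00491, in fits where edgeR called 0.0147% of genes at 0.01 and 10.7% higher at 0.05, and DESeq2 14.6% higher and 1.19% lower at 0.01. Sox4 had a difference of 1.14 ± 1.97 (p = 0.4375), Sox9 of -3.03 ± 3.84 (p = 0.25) and Sox11 of -0.99 ± 3.62 (p = 1), all by the same exact test. The Sox11 value came from group 3, where the single cell with little Dcx had 315 CPM of Sox11, 258 CPM of Sox9 and 4 of 8 astroglial genes, and without it Sox11 was higher by 0.60.

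Sox9 and Sox2, which mark glia as well as progenitors, were read beside astroglial genes. All 4 cells with at least 5 astroglial genes carried Sox9, at 208 to 553 CPM, and 3 of them carried Sox2. In groups 3 and 6, 2 of these 4 cells had 13533 and 12684 detected genes and carried 4 and 5 oligodendrocyte lineage genes and 5 and 6 granule cell genes as well, so that they were counted in both glial sets. Whether each held RNA of more than 1 cell was not tested. Sox9 was not limited to such cells: 43 of the other 105 (41.0%) carried it, 15 of the 47 Sox9 cells had no astroglial gene at 50 CPM, and 36 had at most 1. The cell with the most Sox9, 1175 CPM, had 0 astroglial and 5 granule cell genes. Of the 9 Sox2 cells, 0 lacked an astroglial gene at 50 CPM, against 47 of the 100 cells without Sox2. At most 1 such gene was found in 4 of the 9, against 82 of the 100. The cell with the most Sox2, 254 CPM, had 1 astroglial gene and 5983 CPM of Dcx. All 3 Sox6 cells, which include the group 3 cell with 13533 genes, were among the 5 with at least 3 oligodendrocyte lineage genes, and 4 of those 5 also carried Sox10, a defining factor of that lineage. Whether these cells account for the Sox2 and Sox6 values was not tested.

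**Figure D5:**
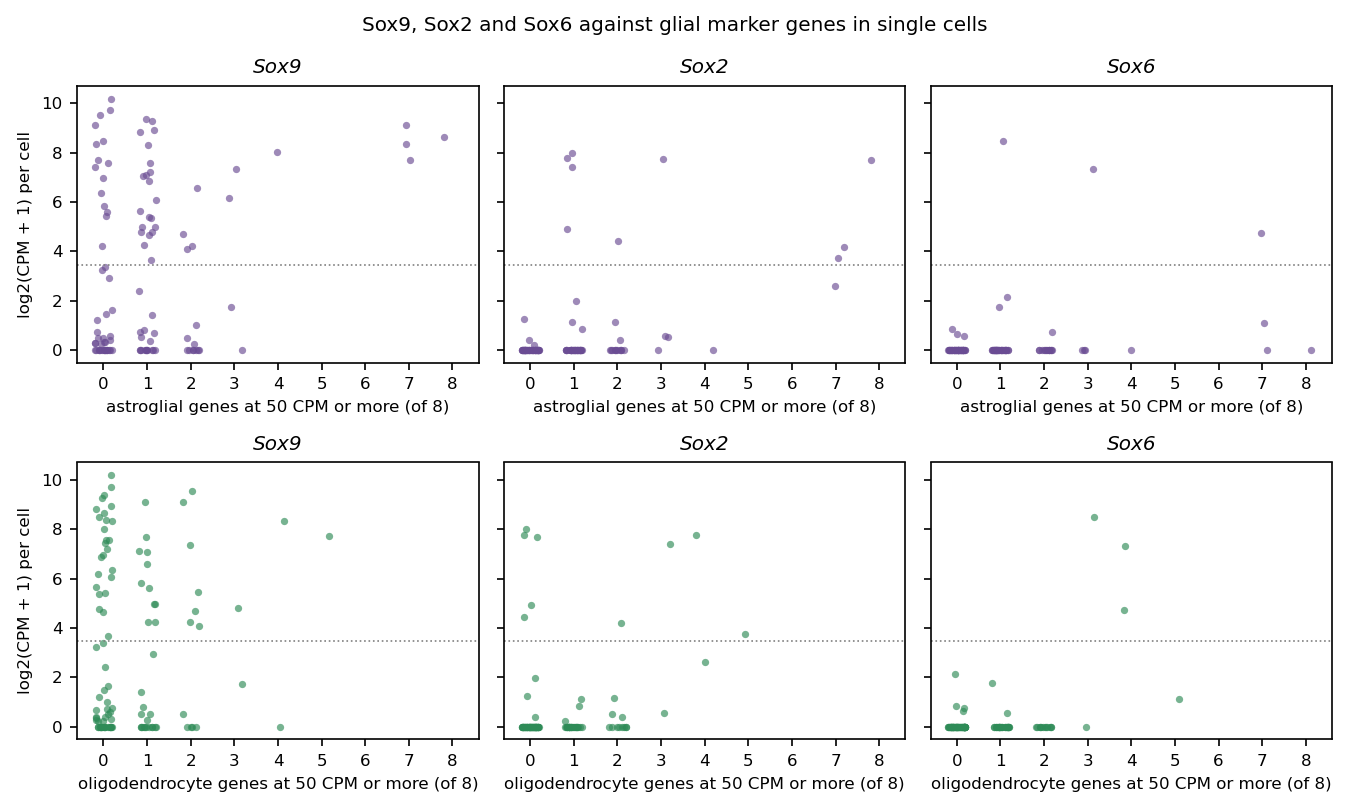
Sox9, Sox2 and Sox6 in single cells, as log2(CPM + 1), against the number of astroglial or oligodendrocyte lineage genes at 50 CPM or more in the same cell, with points moved slightly sideways to show overlaps and a dotted line at 10 CPM. Sox9 is high in many cells with 0 or 1 astroglial genes, while the 3 Sox6 cells all have at least 3 oligodendrocyte lineage genes.

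Genes known to work with or downstream of these factors were counted in the same tests. Of 3 SoxC target genes, Tubb3 (beta-tubulin of neurons) and Map2 (a dendritic microtubule protein) fell with high Mki67 in 6 of 6 groups, by 2.22 ± 1.54 and 1.63 ± 1.001, and Tead2, a Hippo pathway factor, rose in 6 of 6 by 1.34 ± 1.38 (exact sign-flip p = 0.03125 each, 0.345 adjusted over all genes). Of all genes tested, 1.17% fell and 7.89% rose in every group in this way. With Dcx none of the 3 passed, and Tubb3 had a difference of 3.87 ± 3.73 (p = 0.09375, exact sign-flip test). Of 5 POU factors that can partner SoxB1 proteins, 3 were tested and none passed with Mki67 or Dcx. Pou3f2 had a difference of 1.04 ± 1.58 with Mki67 and of -0.93 ± 2.18 with Dcx. Within cells of low Mki67, Pou3f3 was higher with Dcx in 5 of 5 groups, by 1.60 ± 0.88 (p = 0.0625, exact sign-flip test), as were 11.8% of genes. Of 6 other listed Sox genes, 3 were tested with Mki67 and 2 with Dcx and none passed. Sox10 reached 10 CPM in 6 cells, Sox1 in 2 and the noncoding neighbour Sox2ot in 8.

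The lists that describe cell state give the setting of these values. Their calls are those of the same exact sign-flip test, in which no gene went below an adjusted p of 0.345 with Mki67 or 0.311 with Dcx. Of all genes tested, 7.89% were higher and 1.17% lower in every group with high Mki67. With Dcx, 9.36% were higher and 0.691% lower, so counts of genes that rose start from a larger share. Of 15 cycling genes, 11 were higher in every group with high Mki67 and none lower (median difference 4.06), and with Dcx 1 was higher and 1 lower. Of 14 young neuron genes, 4 fell and none rose with high Mki67 (median -1.55), and 4 rose and none fell with Dcx (median 2.56), among them Sema6a, a transmembrane semaphorin of migrating granule cells, by 2.80 ± 2.82. Of 8 granule cell lineage genes, Meis1 rose with high Mki67, and 3 rose with Dcx. These were Zic1 by 3.58 ± 3.02, Cntn2 by 4.64 ± 2.45 and Atoh1, a marker of granule cell precursors, by 0.76 ± 0.41. Only 11 cells carried Atoh1. Of 3 inhibitory neuron genes tested, Gad1 and Pax2 fell with high Mki67 by 1.32 ± 0.31 and 0.82 ± 0.52 and rose with Dcx by 1.24 ± 0.79 and 1.05 ± 0.53 in 6 of 6 groups. The inhibitory neuron genes sum to group means of 36.3 to 1607 CPM with Dcx and 0 to 3396 CPM without, and Pax2 and Slc32a1 are at 0 in the latter cells. Of the 20 Sox5 cells 2 had, and of the 37 Sox12 cells 1 had, at least 3 inhibitory neuron genes. Without the 5 cells so marked, Sox12 was 2.18 higher and Sox5 1.63 higher with Dcx in 6 of 6 groups. No astroglial gene (of 8 and 7 tested) and no oligodendrocyte lineage gene (of 6 and 5) passed with Mki67 or Dcx. Summed astroglial genes had group means of 494 to 3639 CPM with Dcx and 2.15 to 13631 CPM without. For Purkinje cells 1 gene and for unipolar brush cells 1 gene was tested with Mki67, and neither passed; no gene of microglia or endothelium was above the filter.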

How the data were processed

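Single cells from P7 mouse cerebella were sequenced after C1 capture. The deposited values are raw gene counts per cell, which per the labels were made by the authors with STAR 2.4.1d and HTSeq 0.6.1 on mm10; the annotation and strand setting are not given in the sources used here. Replicate molecules cannot be removed, as the reads carry no molecular identifiers. CPM was computed from each cell's total, and means used log2(CPM + 1). Every table column was matched to a labelled cell (0 unmatched). Listed genes each have a count in at least 3 cells.

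The members, gene lists and tests were chosen with earlier results of these data known. All members are reported, list genes are named by largest mean CPM (at most 4 a list), and genes most like a member are named from a rank correlation of 0.5 on, except 1 that is not reported here. Counts were summed per library group and class and tested with edgeR 4.0.16 (filterByExpr, TMM, quasi-likelihood, adjusted p under 0.01) in R 4.3.3. DESeq2 1.42.0 was the alternative. Differences of means within library groups were tested with an exact two-sided sign-flip test over groups in Python 3.11.15 (numpy 2.4.6, pandas 2.3.3, scipy 1.17.1), called at the smallest p possible. Adjustments are Benjamini-Hochberg over all genes tested, except over the 6 neighbouring pairs in the order of levels. Other alternatives were another pseudocount (10 CPM), no filter, other Mki67 and Dcx limits, counts thinned to 1000000 per cell (1 shallower cell left out), and leaving out library groups or cells with markers of other lineages or unusual depth (under 100000 counts or over 10000 genes). Both tests were also run on simulated data, made by shuffling each gene's values over all cells and changing some widely carried genes. Shuffling removed differences between library groups, and the changed genes had more carriers than Sox12, Sox5, Sox11, Sox2 or Sox6. These runs therefore say little about sparse genes, and their outcome is not given here. Sequences were read from annotated transcripts, and positions from the GRCm38 annotation.

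The 2 classes of a contrast come from the same library groups, so each group is its own pair; the sign-flip test uses this and the main edgeR model does not.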

Additional observations from a re-analysis of the deposited data

Results flagged for a closer look

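Among 23 sets of library-group values looked at for a value far from the rest, 3 were marked, and chance alone marks about 1 in 20 such sets. Sox5 averaged 203 CPM in library group 2, against 2.19 to 76.4 CPM in the other 5 groups, with a single cell of 2932 CPM in that group. For Sox2, the difference with Dcx was -7.63 in library group 4 and 0.03 to 1.28 in the others, group 4 having 1 cell with Dcx under 10 CPM, the one with 4 oligodendrocyte lineage genes. For Sox11, the difference with Dcx within cells of low Mki67 was -7.37 in library group 3 and 0.03 to 1.67 in the others, from the cell with 315 CPM of Sox11.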

How the results depend on the processing

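Counts of genes called by edgeR were few and moved with the tool. For Mki67 the 3 genes became 1 with library group as a replicate block, 377 with DESeq2, 7 at an adjusted p of 0.05, 1 against cells with no Mki67 count, 6 with a single limit of 50 CPM, 6 without cells of inhibitory neuron genes, and 2 to 3 with a library group left out. For Dcx the 1 gene became 0 without the filter, 372 with the replicate block, 1486 with DESeq2, 0 with sums of at least 2 cells, 656 at 0.05 and 0 to 1 with a group left out (1 only without group 3). Within cells of low Mki67 the 1 gene became 0 without the filter, 0 with the replicate block, 1181 with DESeq2, 732 at 0.05, 0 without cells of oligodendrocyte genes and 0 with any group left out. Genes past the sign-flip test numbered 823 with Mki67 (1031 to 1389 with a group left out, over 1.5 times more without group 1 or 2), 771 with Dcx (999 to 1461; 1206 without the filter, 1450 without oligodendrocyte-gene cells, 432 at limits of 1000 and 100 CPM) and 870 within cells of low Mki67 (870 to 1617; 1617 without oligodendrocyte-gene cells, 302 at 1000 and 100 CPM). For Dcx, overall and within cells of low Mki67, the count passed 1.5 times without group 4 or 5. With 5 groups left the threshold p is 0.0625, which passes more genes.

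Some member values turned sign, most of them short of the tests' thresholds. Sox12 with Dcx had passed the sign-flip test before it turned. Sox2 with Dcx passed it once turned, without group 4 or without oligodendrocyte-gene cells. So did Sox11 within cells of low Mki67 without group 3. In these settings fewer groups are left, and the test then passes more genes. In the sums with Mki67, Sox11 was 0.81 with the replicate block, 0.24 without astroglial-gene cells, 0.30 without cells of unusual depth, 0.37 without oligodendrocyte-gene cells, 0.089 without inhibitory-gene cells and -0.52 to 0.15 with a group left out. Sox12 was 0.31, 0.32 and 0.27 without astroglial-gene, unusual-depth and oligodendrocyte-gene cells and -2.25 to 0.35 with a group left out. Sox9 was 0.014 with the replicate block, 0.053 with DESeq2, 0.75 against no Mki67 count and -0.47 to 0.25 with a group left out, and Sox2 was -0.84 to 1.42. Among means with Mki67, leaving a group out gave -0.80 to 0.24 for Sox5, -0.36 to 1.35 for Sox12 and -0.0015 to 0.49 for Sox2, Sox12 was -0.24 against no Mki67 count, and the Sox5 share differed by 3.69 percentage points. With Dcx, Sox2 sums were 6.07 with the replicate block, 4.49 with sums of at least 2 cells and -2.82 to 5.91 with a group left out, and Sox2 means were -1.19 to 0.59 and, without oligodendrocyte-gene cells, 0.57. At 1000 and 100 CPM Sox12 turned to -1.26 in sums and -0.24 in means, and within cells of low Mki67 to -2.43 in sums. There, Sox11 was -3.41 to 10.58 in sums and -1.66 to 0.60 in means with a group left out and 0.060 at 1000 and 100 CPM, and the Sox4 share differed by -1.08 percentage points. The causes were not tested. Apart from Sox5 with Dcx, the replicate block ended or made no call of a member.

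The settings without oligodendrocyte-gene or inhibitory-gene cells and the 1000 and 100 CPM limits within cells of low Mki67 were chosen after seeing the data. Counting any read instead of 10 CPM raised carrier shares to 76.1% for Sox4, 69.7% for Sox12, 67.9% for Sox9 and 45.9% for Sox5. DESeq2 shifted the median log2 fold change of all genes by 0.22, -0.90 and -1.25 against edgeR in the 3 comparisons. With 1 to 3 cells of little Dcx in each group, single cells set those means.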
